A study of Saccharomyces cerevisiae with 11 samples.

Results

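The genes described here are 10 cyclins and regulators that act in G1 and at the entry into S phase of budding yeast (Saccharomyces cerevisiae): CLN1, CLN2, CLN3, PCL1, PCL2, CLB5, CLB6, SWI4, WHI5 and SIC1. They were chosen by name, with earlier results of these data known, and found by their reference gene numbers. Counts of calls among them are therefore a description and not independent evidence. All 10 have a row among the 5936 rows of a table with GD, SD and control libraries. They also have a row each among the 5931 rows of a second table with RD and ControlSYN3 libraries. All 10 passed the minimum of 1 FPKM on average (fragments counted per kilobase of a gene's length and scaled to a library's mapped total) in both tables.

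The study sequenced polyadenylated RNA from strains of the genotypes GD (GD1, GD2, GD3), SD (SD1, SD2, SD3) and RD (RD1, RD5, RD6), with 1 library each, and from a wild-type library called control and a wild-type library called ControlSYN3. The labels spell out neither GD, SD, RD nor SYN3, and they give no growth medium, growth phase, ploidy or other allele. The title speaks of clustered essential genes, and short sequence tags served to separate transcripts of synthetic and wild-type genes. The columns for RD carry the letters MD and were assigned by their numbers 1, 5 and 6, which is an inference. The labels do not say whether the libraries of a group came from separate cultures, so p-values cover the spread between these libraries, which may be technical. Each wild-type group is 1 library, so a change in the strains and a peculiarity of that library cannot be told apart.

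In G1, the cyclin Cln3 activates the kinase Cdc28, which inactivates the repressor Whi5. Whi5 holds back SBF, a transcription factor made of Swi4 and Swi6, and its release lets SBF and the related factor MBF (Mbp1 with Swi6) drive a wave of transcription called Start. CLN1, CLN2, PCL1 and PCL2 are known SBF targets and CLB5 and CLB6 known MBF targets. Cln1 and Cln2 promote budding and mark Sic1 for destruction, Pcl1 and Pcl2 activate the kinase Pho85, and Clb5 and Clb6 start DNA replication once Sic1, their inhibitor, is gone. CLN3 and SWI4 are known to be transcribed in late M and early G1 through Mcm1.

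Stretches of the promoters are shown for the 6 members in which letters of these factors' motifs were found away from the start codon, because the members differ in their motifs as well as in their levels. The search covered the 800 bases before each coding sequence of the R64 reference genome (RefSeq), on both strands, for the SCB of SBF (CACGAAA or CGCGAAA), the MCB of MBF (ACGCGT) and an Mcm1 early cell cycle box (TTNCCNNNNNNGGNAA). Among 6003 such windows, 17.0% hold at least 1 SCB, 7.63% an MCB and 2.87% an Mcm1 box. Capitals mark these motifs, read 5′ to 3′ on the strand of the gene.
CLN1, R64 chrXIII:662024-662054, plus strand: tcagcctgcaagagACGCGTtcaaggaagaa
CLN2, R64 chrXVI:67138-67246, minus strand: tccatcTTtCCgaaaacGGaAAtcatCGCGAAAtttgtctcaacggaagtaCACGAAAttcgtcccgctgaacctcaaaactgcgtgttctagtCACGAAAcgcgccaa
PCL1, R64 chrXIV:87530-87615, plus strand: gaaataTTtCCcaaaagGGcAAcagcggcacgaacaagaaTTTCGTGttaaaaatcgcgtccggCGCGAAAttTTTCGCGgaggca
PCL2, R64 chrIV:234517-234566, plus strand: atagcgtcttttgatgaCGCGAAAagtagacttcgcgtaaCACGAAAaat
CLB6, R64 chrVII:706865-706913, minus strand: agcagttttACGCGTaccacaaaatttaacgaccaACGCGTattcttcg
SWI4, R64 chrV:386306-386392, minus strand: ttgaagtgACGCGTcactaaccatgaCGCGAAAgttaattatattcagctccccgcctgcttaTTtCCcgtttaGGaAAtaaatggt

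CLN2 and PCL1 each hold 3 SCBs beside 1 Mcm1 box, and PCL2 holds 2 SCBs and no Mcm1 box. At least 2 SCBs occur in 1.88% of all windows and at least 2 MCBs, as in CLB6, in 0.766%. SWI4 holds 1 MCB, 1 SCB and 1 Mcm1 box, and CLN1 has, beside the MCB shown, 1 SCB near the far end of its window. No motif overlaps one of another kind in these 10 windows. SIC1 has 1 SCB match directly before its start codon, and in CLN3, CLB5 and WHI5 none of these letters occur. A match is a description of the reference sequence, and the strains may differ from it.

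CLN1, CLB5 and PCL1 each have a paralog among the members, and reads of near-identical stretches could be split between paralogs by the authors' counting. CLN1 and CLN2 are identical at 66.8% of aligned coding bases and share no exact run longer than 17 bases, against 63.6% and 15 bases for CLB5 and CLB6 and 58.7% and 11 bases for PCL1 and PCL2. None of the 10 genes overlaps another annotated gene in the reference.

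Some libraries stood apart. Spearman correlations across rows, which are not independent replicates, were 0.918 to 0.976 between GD libraries, 0.980 to 0.992 between SD libraries and 0.897 to 0.993 between RD libraries, with RD5 and RD6 closest and RD1 farthest. All 5 a-specific mating genes summed to 4280 FPKM in RD1 and 50.4 FPKM in ControlSYN3. In RD5 and RD6 their sum was 30.5 to 33.7 FPKM. The 3 alpha-specific genes summed to 74.6 FPKM in RD1. For RD, the count of members called, some fold changes and the list medians are therefore given with and without RD1. Relative to the control the median of all 5899 tested genes was shifted by -0.44 in GD and by -0.37 in SD on the log2 scale. With median-of-ratios scaling, genes called in GD against the control numbered 550 higher and 530 lower in place of 294 and 1601, and in SD against the control 1103 higher and 1032 lower in place of 616 and 1852.

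Against SD, GD strains carried more transcript of the SBF- and MBF-driven cyclins and of WHI5, while CLN3, SWI4 and SIC1 were not called. Of the 10 members, 7 were called higher in GD (CLN1, CLN2, PCL1, PCL2, CLB5, CLB6 and WHI5) and none lower, beside 20.4% of all tested genes called higher and 20.4% called lower. The same 7 had every GD library above every SD library, which 27.9% of all genes did. The median log2 fold change was 1.16 over the members and -0.04 over all genes. Fold changes throughout are on the log2(FPKM + 1) scale, and calls are limma adjusted p under 0.05 over all genes. In bulk RNA, fewer cells at a stage of the cell cycle and less RNA per cell cannot be told apart.

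Against the control, SD strains had less transcript of all members but CLN3 and SIC1. In this comparison 8 of 10 members were called lower and none higher, beside 31.4% of all genes called lower and 10.4% called higher. All 3 SD libraries lay below the control for these 8 members, and 60.5% of all genes did so. GD strains differed in both directions: CLN1 and CLN2 were called higher (4.98% of all genes) and SWI4 and WHI5 lower (27.1% of all genes), while 6 members lay below the control in all 3 GD libraries, as did 59.6% of all genes. The GD calls are the weaker ones. The fit holds all 7 libraries, and with only GD and the control in it, none of the 10 was called, though 3.95% of all genes were. The comparisons share libraries, so their values stand side by side here and are not independent of each other.

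**Figure D1:**
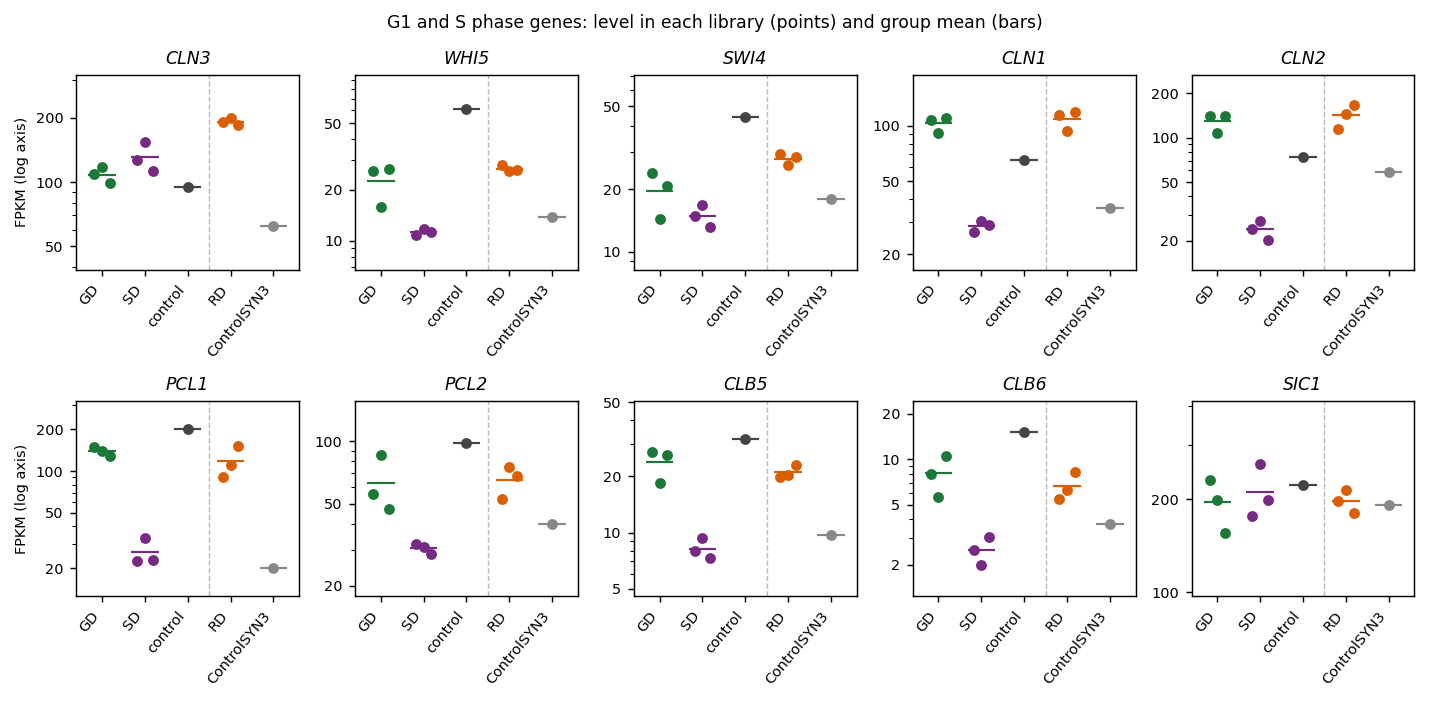
FPKM on a log axis for each of the 10 genes, with 1 point per library and a bar at the group mean; the dashed line separates the 2 tables, which were scaled separately. SD libraries sit lowest within their table for the 4 Start cyclins CLN1, CLN2, PCL1 and PCL2 and for CLB5, CLB6 and WHI5, while SIC1 stays between 156 and 260 FPKM in all 11 libraries.

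The regulators upstream of Start did not move as a unit. CLN3, on chromosome I (65778 to 67520), encodes the G1 cyclin at the head of the cascade. Its level was 109, 118 and 98.8 FPKM in GD1, GD2 and GD3, against 126, 153 and 113 FPKM in SD1, SD2 and SD3, and 94.7 FPKM in the control. GD and SD overlap, and all 6 lie above the control. The log2 fold change was -0.26 ± 0.17 (SE) for GD against SD (95% interval -0.65 to 0.12, adjusted p = 0.235). Set against the control it was 0.19 ± 0.23 in GD (adjusted p = 0.548) and 0.45 ± 0.23 in SD (interval -0.09 to 0.997, adjusted p = 0.155). SD against the control was 0.83 above the median of all genes, and with median-of-ratios scaling CLN3 was called higher there (adjusted p = 0.0238).

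WHI5, the repressor of SBF (chromosome XV, 479533 to 480420), was highest in the control. Its level was 25.8, 15.8 and 26.5 FPKM in GD1, GD2 and GD3, against 10.7, 11.7 and 11.2 FPKM in SD1, SD2 and SD3, and at 60.8 FPKM in the control. The 3 groups do not overlap, and GD2 is the lowest of the GD libraries. GD exceeded SD by 0.92 ± 0.21 on the log2 scale (SE, adjusted p = 0.0118). Set against the control, the log2 fold change was -1.42 ± 0.29 in GD (adjusted p = 0.0131) and -2.34 ± 0.29 in SD (adjusted p = 0.00175). With median-of-ratios scaling the call for GD against the control was lost (adjusted p = 0.0859).

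SWI4, the DNA-binding subunit of SBF (chromosome V, 382595 to 385876), was likewise highest in the control. Its values were 23.9, 14.4 and 20.7 FPKM in GD1, GD2 and GD3, against 14.9, 16.7 and 13.1 FPKM in SD1, SD2 and SD3, and 44.3 FPKM in the control. GD and SD overlap through GD2, and the control lies above all 6. Both strains were called below the control, SD by a log2 fold change of -1.51 ± 0.29 (SE, adjusted p = 0.00602) and GD by one of -1.16 ± 0.29 (adjusted p = 0.0223), and the GD call was lost with median-of-ratios scaling (adjusted p = 0.138). GD against SD was not called at 0.35 ± 0.20 (interval -0.12 to 0.83, adjusted p = 0.2), but was called higher without GD2 (0.55, adjusted p = 0.0193).

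CLN1 and CLN2, the paired G1 cyclins that carry cells through Start, lay on opposite sides of the control in GD and SD. CLN1 (chromosome XIII, 662644 to 664284) had 108, 91.4 and 110.3 FPKM in GD1, GD2 and GD3, against 26.3, 30.2 and 28.8 FPKM in SD1, SD2 and SD3, and 65.4 FPKM in the control. CLN2 (chromosome XVI, 64977 to 66614) had 141, 107 and 141 FPKM in GD1, GD2 and GD3, against 24.1, 27.4 and 20.4 FPKM in SD1, SD2 and SD3, and 74.2 FPKM in the control. For both genes each GD library exceeds the control and each SD library falls short of it.

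Between GD and SD the log2 fold change was 1.82 ± 0.13 (SE) for CLN1 (adjusted p = 0.000173) and 2.39 ± 0.17 for CLN2 (adjusted p = 0.000157). In SD the log2 fold change from the control was -1.18 ± 0.19 for CLN1 (adjusted p = 0.00316) and -1.602 ± 0.24 for CLN2 (adjusted p = 0.00266). In GD it was 0.65 ± 0.19 for CLN1 (adjusted p = 0.0362) and 0.79 ± 0.24 for CLN2 (adjusted p = 0.0421), or 1.09 and 1.22 above the all-gene median of that comparison. The calls of CLN1 and CLN2 in GD turned on single libraries: both were lost without GD1 (adjusted p = 0.0802 for CLN1 and 0.0958 for CLN2), without SD1 (0.0741 and 0.0816), without SD2 (0.0653 and 0.0602) or without SD3 (0.0806 and 0.0670), and CLN2 also without GD3 (0.0611). The SWI4 and WHI5 calls in GD did not change without any one GD or SD library.

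PCL1 and PCL2 encode Pho85 cyclins of G1. PCL1 (chromosome XIV, 87897 to 88736) had the most negative SD fold change of the 10 genes. Its level was 149.5, 138 and 128 FPKM in GD1, GD2 and GD3, against 22.7, 33.1 and 23.1 FPKM in SD1, SD2 and SD3, and 199 FPKM in the control. GD sits well above SD and below the control, without overlap. GD exceeded SD by 2.37 ± 0.18 on the log2 scale (SE, adjusted p = 0.000187). Set against the control, the log2 fold change was -2.90 ± 0.25 in SD (adjusted p = 0.000911) and -0.52 ± 0.25 in GD (adjusted p = 0.139).

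PCL2 (chromosome IV, 234927 to 235853) varied most among GD libraries. Its level was 55.7, 86.3 and 47.2 FPKM in GD1, GD2 and GD3, against 32.1, 31.0 and 28.6 FPKM in SD1, SD2 and SD3, and 98.0 FPKM in the control. The coefficient of variation was 32.7% in GD and 5.80% in SD, with GD2 high, where WHI5 and SWI4 were low. GD exceeded SD by 0.98 ± 0.22 on the log2 scale (SE, adjusted p = 0.0115, but 0.0517 without SD3). Set against the control, the log2 fold change was -1.65 ± 0.31 in SD (adjusted p = 0.00568) and -0.68 ± 0.31 in GD (adjusted p = 0.129, and called lower without GD2 at -0.92, adjusted p = 0.00671).

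CLB5 and CLB6, the S phase cyclins, had low levels among the members. CLB5 (chromosome XVI, 773875 to 775182) had 27.1, 18.4 and 25.9 FPKM in GD1, GD2 and GD3, against 7.94, 9.37 and 7.31 FPKM in SD1, SD2 and SD3, and 31.8 FPKM in the control. CLB6 (chromosome VII, 705359 to 706501) had 8.03, 5.66 and 10.6 FPKM in GD1, GD2 and GD3, against 2.53, 1.99 and 3.04 FPKM in SD1, SD2 and SD3, and 15.3 FPKM in the control. Both genes are ordered control, GD, SD from high to low without overlap. The log2 fold change of GD against SD was 1.42 ± 0.19 (SE) for CLB5 (adjusted p = 0.0016) and 1.34 ± 0.26 for CLB6 (adjusted p = 0.00636). In SD the log2 fold change from the control was -1.84 ± 0.27 for CLB5 (adjusted p = 0.00252) and -2.22 ± 0.36 for CLB6 (adjusted p = 0.00357). GD against the control was not called for either (CLB5 -0.42 ± 0.27, adjusted p = 0.254; CLB6 -0.88 ± 0.36, adjusted p = 0.101).

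SIC1, the inhibitor of Clb5 and Clb6 with Cdc28 (chromosome XII, 286820 to 287674), was called in no comparison. Its level was 231, 199 and 156 FPKM in GD1, GD2 and GD3, against 177, 259.7 and 199 FPKM in SD1, SD2 and SD3, and 223 FPKM in the control. All 3 groups overlap. GD differed from SD by -0.12 ± 0.22 on the log2 scale (SE, 95% interval -0.62 to 0.39, adjusted p = 0.691). SD differed from the control by -0.09 ± 0.31 (interval -0.81 to 0.62, adjusted p = 0.828) and GD by -0.21 ± 0.31 (adjusted p = 0.614).

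**Figure D2:**
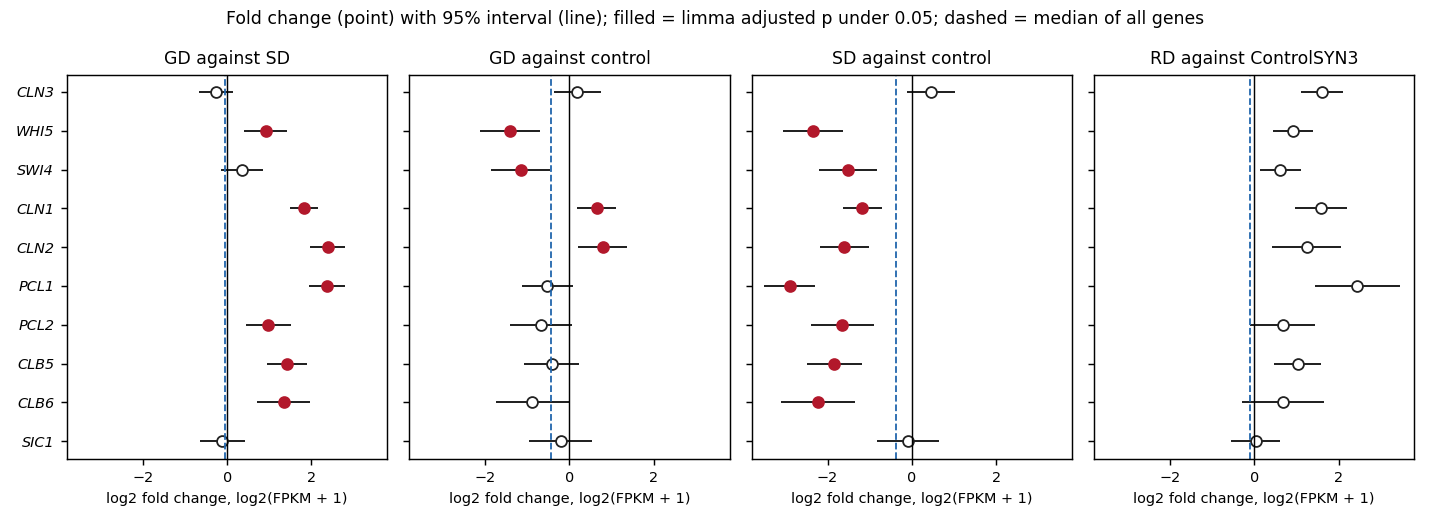
Log2 fold changes on log2(FPKM + 1) with 95% intervals for the 10 genes in 4 comparisons; filled points are called by limma, and the dashed line is the median of all genes. CLN3 and SIC1 are called in none of the 4, whereas 7 of the 10 genes are called higher in GD than in SD.

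The order of levels among the members therefore differed between the strains. FPKM are scaled to gene length, so levels of different genes can be set side by side within a library. SIC1 was the highest of the 10 in 10 of 11 libraries (CLN3 in RD6) and CLB6 the lowest in all 11. In GD the means ran SIC1 (195 FPKM), PCL1 (139), CLN2 (129.7), CLN3 (108), CLN1 (103), PCL2 (63.0), CLB5 (23.8), WHI5 (22.7), SWI4 (19.6) and CLB6 (8.09). There the ranges of neighbours overlap from PCL1 to CLN1 and from CLB5 to SWI4. In SD the means ran SIC1 (212 FPKM), CLN3 (131), PCL2 (30.6), CLN1 (28.4), PCL1 (26.3), CLN2 (23.9), SWI4 (14.9), WHI5 (11.2), CLB5 (8.21) and CLB6 (2.52). There the ranges of neighbours overlap only from PCL2 to CLN2.

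Ratios of levels within a library do not depend on the scaling of the library. CLN3 over CLN2 was 0.770, 1.101 and 0.701 in GD1, GD2 and GD3, against 5.26, 5.61 and 5.54 in SD1, SD2 and SD3, and 1.28 in the control. SIC1 over CLB5 was 8.52, 10.9 and 6.01 in GD1, GD2 and GD3, against 22.3, 27.7 and 27.2 in SD1, SD2 and SD3, and 7.02 in the control. CLN3 over WHI5 was 4.21, 7.46 and 3.73 in GD1, GD2 and GD3, against 11.8, 13.1 and 10.1 in SD1, SD2 and SD3, and 1.56 in the control. In these 3 ratios every SD library lies above every GD library and above the control.

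Within pairs of paralogs, CLN1 over CLN2 was 0.769 to 0.854 in GD and 1.09 to 1.41 in SD, with 0.881 in the control, and PCL1 over PCL2 was 1.603 to 2.71 in GD and 0.708 to 1.07 in SD, with 2.03 in the control. CLB5 over CLB6 was 2.45 to 3.37 in GD and 2.40 to 4.71 in SD, which overlap. SWI4 over WHI5 was 0.780 to 0.925 in GD and 1.17 to 1.42 in SD, with 0.729 in the control. Over the 7 ratios examined, a 2-sided exact permutation test of GD against SD gave p = 0.1 for all but CLB5 over CLB6 (p = 0.9), adjusted p = 0.117 and 0.9. With 3 libraries a group, 0.1 is the smallest p this test allows.

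**Figure D3:**
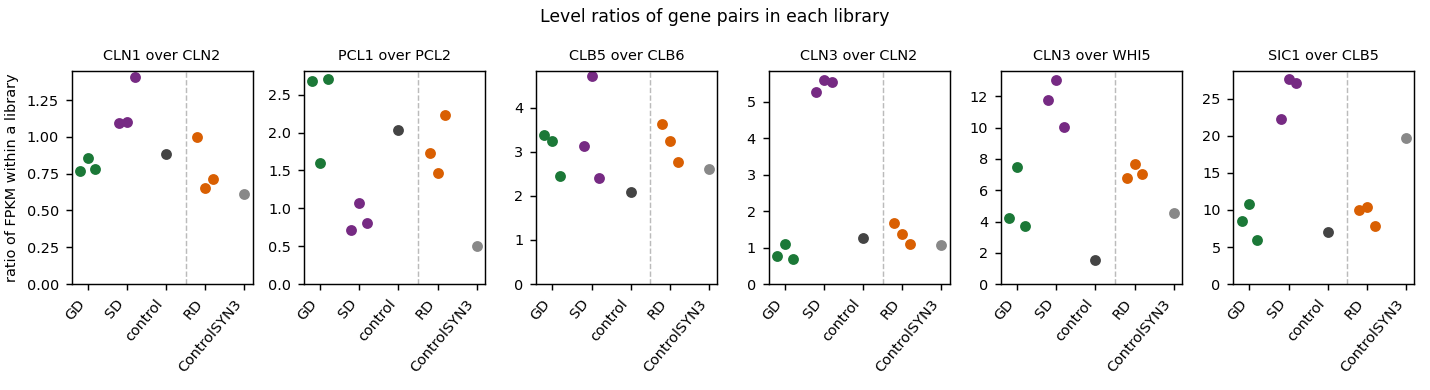
Ratio of FPKM within each library for 6 pairs of members, with 1 point per library on linear axes from 0; the dashed line separates the 2 tables. CLN3 over CLN2 lies between 5.26 and 5.61 in SD and below 2 in the other 8 libraries.

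In the second table, 9 of the 10 members were higher in every RD library than in ControlSYN3, and 29% of all genes were. SIC1 is the exception. No member passed the adjusted threshold, beside 0% of all genes called higher and 0% called lower, where the fit has 2 residual degrees of freedom. At an unadjusted limma p under 0.05, 7 members were higher and none lower, beside 5.16% of all genes higher. Without RD1, which differs in mating genes, 9 members were called higher (all but SIC1), beside 22.9% of all genes. That fit rests on the spread between RD5 and RD6 alone, with 1 residual degree of freedom. Its log2 fold changes were 1.61 for CLN3, 2.62 for PCL1, 1.54 for CLN1, 1.40 for CLN2 and 0.03 for SIC1. Without RD5 or without RD6 none was called.

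CLN3 was at 192, 199 and 185 FPKM in RD1, RD5 and RD6, against 62.3 FPKM in ControlSYN3. The RD libraries lie close together, with a coefficient of variation of 3.63%. The log2 fold change was 1.61 ± 0.17 (SE; unadjusted p = 0.000781, adjusted p = 0.410). PCL1 was at 90.5, 111 and 151 FPKM in RD1, RD5 and RD6, against 20.3 FPKM in ControlSYN3, with a log2 fold change of 2.45 ± 0.34 (SE; adjusted p = 0.410).

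CLN1 was at 114, 94.2 and 119 FPKM in RD1, RD5 and RD6, against 35.7 FPKM in ControlSYN3 (log2 fold change 1.58 ± 0.21, SE, adjusted p = 0.410), and CLN2 at 114, 144.6 and 167 FPKM, against 58.5 FPKM (1.25 ± 0.28, adjusted p = 0.410). RD1 is the lowest of the RD libraries for CLN2 but not for CLN1. CLN1 over CLN2 was 1.002 in RD1, 0.651 and 0.712 in RD5 and RD6, and 0.610 in ControlSYN3.

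CLB5 was at 19.8, 20.5 and 22.9 FPKM in RD1, RD5 and RD6, against 9.74 FPKM in ControlSYN3, and CLB6 at 5.44, 6.31 and 8.30 FPKM, against 3.73 FPKM. WHI5 was at 28.2, 25.9 and 26.4 FPKM in RD1, RD5 and RD6, against 13.8 FPKM in ControlSYN3, and SWI4 at 29.3, 26.1 and 28.5 FPKM, against 17.9 FPKM. PCL2 was at 52.5, 75.3 and 67.6 FPKM in RD1, RD5 and RD6, against 39.9 FPKM in ControlSYN3. SIC1 was at 197, 214 and 180 FPKM in RD1, RD5 and RD6, against 192 FPKM in ControlSYN3 (log2 fold change 0.03 ± 0.20, SE, 95% interval -0.54 to 0.60). The RD values of SIC1 lie on both sides of ControlSYN3.

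The wild-type libraries of the 2 tables had unlike levels of some members and like levels of others. WHI5 stood at 60.8 FPKM in the control and 13.8 FPKM in ControlSYN3, PCL1 at 199 and 20.3 FPKM, and CLB6 at 15.3 and 3.73 FPKM, while SIC1 stood at 223 and 192 FPKM. The tables were scaled separately and no test was made across them. By rank among the rows of its own library, WHI5 was at percentile 41.9 in the control and 9.46 in ControlSYN3, and PCL1 at 80.3 and 15.7. CLN2 was at percentile 50.1 in the control and 50.8 in ControlSYN3, SIC1 at 82.3 and 83.5, and CLN3 at 59.5 and 52.9.

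In GD against SD, most other SBF- and MBF-linked genes were called higher, as were CLN1, CLN2, PCL1, PCL2, CLB5 and CLB6. The lists used here and below were chosen with earlier results of these data known, so their counts are a description and not independent evidence. The 22 measured SBF-linked G1 genes are budding, cell wall and factor genes, without the members. Of these, 17 were called higher in GD than in SD, 1 lower and 4 neither, with a median of 1.05. Of all genes 20.4% were called in each direction, and without SD3 13 of the 22 were called higher. In SD against the control 2 were higher, 15 lower and 5 not called (median -1.52, beside -0.37 for all genes). Of all genes 10.4% were called higher there and 31.4% lower. GD against the control was mixed, with 4 higher (18.2%) and 7 lower (31.8%), beside 4.98% of all genes higher and 27.1% lower. The share lower is thus near that of all genes. The list median was -0.54, beside -0.44 for all genes. With median-of-ratios scaling 5 were higher and 2 lower, and none was called with only GD and the control in the fit. CSI2 averaged 87.0 ± 1.49 FPKM in GD and 15.8 ± 3.54 FPKM in SD (SD, n = 3 each), and the control value was 186 FPKM (GD against SD adjusted p = 0.000142). TOS6, a cell wall protein gene, averaged 530.0 ± 98.1 FPKM in GD and 64.1 ± 24.3 FPKM in SD (SD, n = 3 each), and the control value was 848 FPKM. SVS1 averaged 419.6 ± 41.4 FPKM in GD and 99.5 ± 20 FPKM in SD (SD, n = 3 each), and the control value was 387 FPKM. The gene called lower in GD than in SD was TOS8, at 38.1 FPKM in GD and 153 FPKM in SD.

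Most MBF-linked S phase genes of replication and repair differed between GD and SD. In GD 25 of 26 were called higher than in SD, none lower and 1 neither (median 1.08), beside 20.4% of all genes higher. The 25 fell to 18 without SD3 and to 19 without GD1. In SD against the control 25 of 26 were called lower (median -1.78), beside 31.4% of all genes, and 20 with median-of-ratios scaling. MCD1, the cohesin subunit gene, averaged 41.3 ± 11.1 FPKM in GD and 5.93 ± 1.90 FPKM in SD (SD, n = 3 each), and the control value was 108 FPKM. NRM1, the corepressor that closes MBF transcription, averaged 58.0 ± 6.28 FPKM in GD and 15.0 ± 1.30 FPKM in SD (SD, n = 3 each), and the control value was 38.4 FPKM (GD against SD adjusted p = 0.000173). RAD27, a flap endonuclease gene, averaged 70.6 FPKM in GD and 16.9 FPKM in SD. In GD against the control 9 of the 26 (34.6%) were called lower, near the 27.1% of all genes. The 9 became 2 with median-of-ratios scaling and 0 with only GD and the control in the fit.

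The 7 early G1 Mcm1 genes are CDC6 and the MCM helicase genes, transcribed around the M to G1 boundary. In GD against SD 6 were called higher, beside 20.4% of all genes, and none lower. The median was 0.55, and without SD3 only 2 were called.

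Among 21 other regulators of Start, 6 were called higher in GD than in SD (3 without SD3) and 4 lower, shares near the 20.4% of all genes called in each direction. CDC28, the cyclin-dependent kinase itself, averaged 73.6 ± 26.6 FPKM in GD and 19.6 ± 0.889 FPKM in SD (SD, n = 3 each), and the control value was 101 FPKM (log2 fold change 1.78 ± 0.27, SE, GD against SD, adjusted p = 0.00267). XBP1, a stress-induced repressor of G1 cyclin genes, went the other way, at 30.3 ± 8.74 FPKM in GD and 131 ± 22.1 FPKM in SD (SD, n = 3 each), and the control value was 41.7 FPKM (-2.11 ± 0.24, SE, GD against SD, adjusted p = 0.000830). MSA2, an SBF and MBF cofactor gene, was at 46.5 FPKM in GD and 27.0 FPKM in SD, with 156 FPKM in the control. Of 16 other cyclins, the mitotic genes CLB1, CLB2, CLB3 and CLB4 were the 4 called higher in GD than in SD, and the 4 called lower were CCL1, PCL7, PCL8 and PCL10 (1 of the 16 was called lower without SD3). These shares too are near the 20.4% of all genes in each direction. CLB1 averaged 147 ± 36.3 FPKM in GD and 23.6 ± 2.08 FPKM in SD (SD, n = 3 each), and the control value was 20.3 FPKM. For CLB2, CLB3 and CLB4, unlike CLB1, the control value was above both means. CLB2 averaged 44.2 FPKM in GD and 9.99 FPKM in SD, with 64.4 FPKM in the control. CLB3 averaged 48.6 and 30.1 FPKM, with 60.3 FPKM in the control, and CLB4 22.2 and 8.64 FPKM, with 43.9 FPKM.

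Markers of growth state also differed between GD and SD, in the direction opposite to that of the called members. Of 13 genes known to be high in stationary phase or stress, 12 were called lower in GD than in SD and none higher, beside 20.4% of all genes lower. In SD against the control 9 were called higher and none lower, beside 10.4% of all genes higher. Leaving out single libraries gave 6 to 11 higher. The list was chosen with earlier results of these data known, so these counts are a description and not independent evidence. Their summed level was 2865 to 5806 FPKM in GD, 21838 to 31124.5 FPKM in SD and 5040 FPKM in the control, and no marker was at 0 in any library. HSP26, a small heat shock protein gene, averaged 518 ± 172 FPKM in GD and 8556 ± 2415 FPKM in SD (SD, n = 3 each), and the control value was 675 FPKM. In the second table the sum was 9276 to 18164 FPKM in RD and 14971 FPKM in ControlSYN3, with RD1 above and RD5 and RD6 below ControlSYN3. Of 8 mating genes, 2 were called higher in GD than in SD, 1 lower and 5 neither. Of all genes 20.4% were called in each direction. The 3 alpha-specific ones summed to 6082 to 10702 FPKM in GD, 2417 to 4621 FPKM in SD and 8113 FPKM in the control. Most of it came from MF(ALPHA)1. MF(ALPHA)2 averaged 1167 ± 707 FPKM in GD and 97.3 ± 26.5 FPKM in SD (SD, n = 3 each), and the control value was 1287 FPKM. STE3 averaged 336 FPKM in GD and 274 FPKM in SD, with 233 FPKM in the control (GD against SD adjusted p = 0.342). The 5 a-specific genes summed to 33.4 to 92.4 FPKM in GD, 76.8 to 94.5 FPKM in SD and 186 FPKM in the control, and STE6 among them had a GD against SD log2 fold change of -1.01 (adjusted p = 0.0384). The part of growth state and of mating genes in the levels of the members was not tested.

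**Figure D4:**
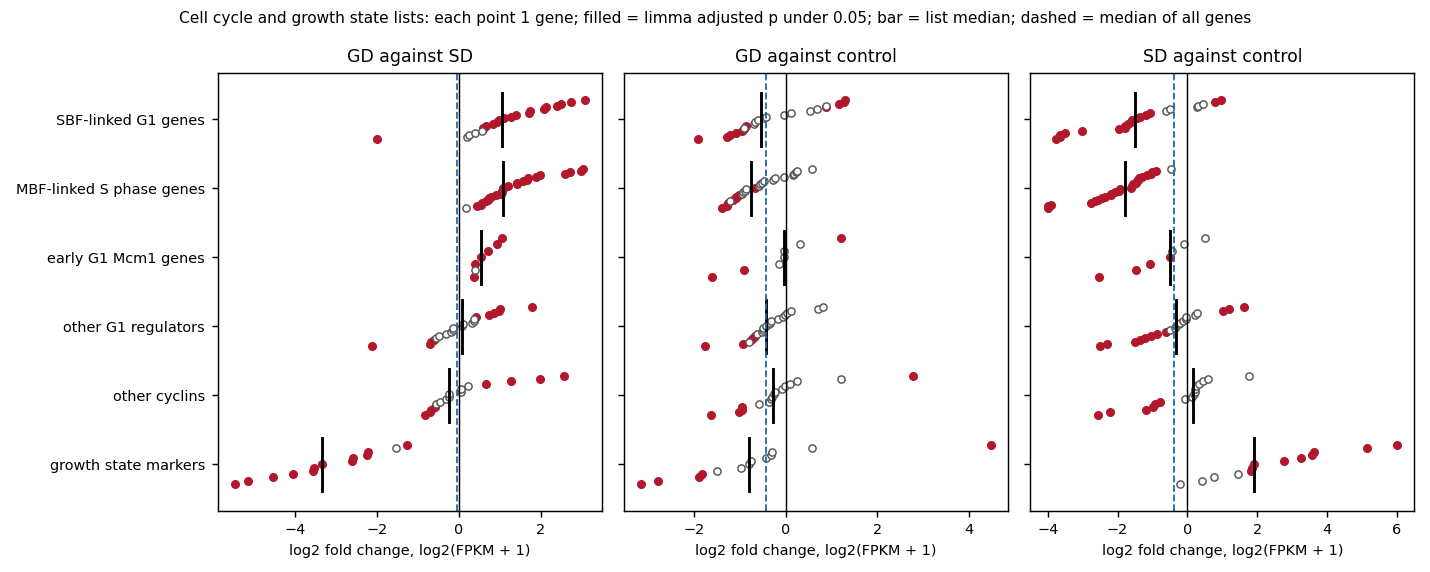
Log2 fold changes on log2(FPKM + 1) of the genes in 6 lists, without the 10 members, in 3 comparisons; each point is 1 gene, filled where limma calls it, with a bar at the list median and a dashed line at the all-gene median. The SBF- and MBF-linked lists have, for GD against SD, medians of 1.05 and 1.08, and the growth state markers -3.34.

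In RD against ControlSYN3 no gene of these lists was called with all 3 RD libraries. The list medians were 0.89 for MBF-linked genes, 0.48 for SBF-linked genes and 0.36 for the early G1 Mcm1 genes, beside -0.10 for all genes. Without RD1, the list medians were 0.91 for MBF-linked, 0.59 for SBF-linked and 0.39 for the early G1 Mcm1 genes, beside -0.13 for all genes. That fit sets RD5 and RD6 against 1 library and has 1 residual degree of freedom. RNR1, the large subunit of ribonucleotide reductase, averaged 99.9 FPKM in RD and stood at 19.1 FPKM in ControlSYN3.

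For each member the tested genes with the most similar profile were sought among the 5500 genes averaging 10 FPKM or more, by the mean absolute difference of centred log2(FPKM + 1) values over the 7 libraries of GD, SD and control. Nearest to CLN1 were SFG1 (0.10), HOF1 (0.12) and CWP2 (0.13), and nearest to CLN2 were CIS3 (0.13), TOS1 (0.17) and HOF1 (0.19). PCL1 was followed most closely by CSI2 (0.17), RSR1 (0.17) and SPC24 (0.19), and CLB5 by TIF11 (0.08), POL32 (0.09) and RTT107 (0.09). Nearest to CLN3 were PSR1 (0.04), PBS2 (0.07) and PPQ1 (0.08), to WHI5 PAC11 (0.07), DAD2 (0.07) and RFA1 (0.09), and to SIC1 MLP1 (0.08), YER152C (0.09) and DDP1 (0.10). PCL2 was nearest to TIR3 (0.11), CLA4 (0.14) and URA2 (0.14), CLB6 to YHR127W (0.11), ERJ5 (0.12) and RKM1 (0.12), and SWI4 to SOP4 (0.08), VMA4 (0.08) and TMA22 (0.09). SFG1, as an example, averaged 87.4 ± 10.7 FPKM in GD and 21.4 ± 1.14 FPKM in SD (SD, n = 3 each), and the control value was 44.8 FPKM. No other member is among the 3 nearest of any member. CLB6 averages under 10 FPKM and was not among the genes searched, so it could not appear there.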

How the data were processed

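The authors deposited FPKM values of 11 libraries as 2 tables, a unit taken from the file headers. RSEM, Bowtie2, BWA and the build R64 appear in the submitters' processing notes without versions or roles; strandedness and the assignment of recoded copies are not given in the sources used here. Low values did not resolve into whole fragments (mean distance to a whole number 0.146 to 0.188 at the best scale), so depth is unknown and no counting interval is given.

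Gene numbers tied rows to the R64 annotation (5774 of 5936 and 5770 of 5931). Each table was fitted by itself by limma 3.58.1 (R 4.3.3), using log2(FPKM + 1), trended and robust variances, 1 mean per group, genes averaging 1 FPKM or more (5899 and 5895) and Benjamini-Hochberg adjustment over all of them at 0.05. Single wild-type libraries take the spread of the strains. The procedure was tested on simulated data that share this assumption, so that test cannot check it. All 10 members were named. Of each list the counts are given for GD against SD, and for some lists also against the control. Examples come from the 3 called genes of lowest p in any comparison. TOS8, RNR1, PCL7, PCL8 and PCL10 stand outside that choice and were picked after their values were seen. STE3, which was not called, also stands outside it. For each member the 3 genes of most similar profile are also named. HCM1, a listed SBF-linked gene, was not analysed here. Members and lists were chosen with earlier results of these data known. Alternatives were other minimums, a pseudocount of 0.1, median-of-ratios scaling, fewer groups, a replicate block and leaving out each library. No per-sample column lacked a sample (0). Results on 1 further gene list and its motif are not reported here.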

Additional observations from a re-analysis of the deposited data

Results flagged for a closer look

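CLN1 and CLN2 lay above the control in all 3 GD libraries and below it in all 3 SD libraries. Of all 5899 genes tested, 956 lay above the control in all 3 GD libraries and 3570 below it in all 3 SD libraries. The number that did both was not counted. Both GD calls against the control were lost without GD1 or without any single SD library. The difference between the GD and SD effects, tested by limma as GD against SD, was 1.82 on the log2 scale for CLN1 and 2.39 for CLN2. Both effects are measured against the same single control library, and in the difference between them that library cancels out.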

How the results depend on the processing

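The count of members called was 8 in SD against the control and stayed at 7 to 9 under every alternative run. In GD against SD it was 7 and stayed at 6 to 8. With the replicate block, the strain numbers 1, 2 and 3 paired across GD and SD, it was 7. Deviations of same-numbered libraries correlated at -0.13, -0.18 and -0.17 across genes, and no library correlated best with its own number. Deviations are centred within groups of 3, so these correlations are tied to each other. They cannot settle whether same-numbered libraries are related beyond their number. In GD against the control the count of 4 dropped to 2 with median-of-ratios scaling and to 0 with only these groups in the fit, and leaving out single libraries gave 2 to 5. There the spread comes from GD libraries alone. In RD against ControlSYN3 the count of 0 became 9 without RD1 and stayed at 0 without RD5 or RD6, a range of 0 to 9. No member's called fold change changed sign. The minimum of 10 FPKM left CLB6 out of both tables. Of the SBF-linked genes, 4 higher and 7 lower in GD than the control became 0 and 0 with only these groups, 5 and 2 with median-of-ratios scaling, and 2 to 6 and 5 to 8 when single libraries were left out. Unknown depth limits what can be said of the low values of CLB6.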
